A study of Homo sapiens with 4 samples.

Results

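PEA3 and other ETS factors were followed in ES2 cells treated with liquiritigenin (Liq). The genes were ETV1, ETV4 and ETV5, which form the PEA3 group, with ETV6, ETS1, ETS2, ELK1, ELK3, ELF1 and PHLDA1, and they make up 10 of the 23228 genes listed in the count tables. They were taken by symbol and had been selected on their response in this same comparison of Liq with vehicle, so their levels and differences are given as a description without p-values. All 10 passed the filter on low counts, which 13546 of the 23228 genes passed.

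The cells are ES2, a human line established from an ovarian cancer. Liquiritigenin is a plant flavanone that the study used as an agonist of the estrogen receptor ERβ. Every culture was kept in RPMI-1640 without phenol red and with 5% serum stripped by dextran-charcoal, and was treated for 24 h with vehicle or with Liq at 100 μM, the dose being taken from the study's methods. Total RNA was sequenced from 2 vehicle samples and 2 Liq samples of this single line. Nothing states that the samples of a group came from separate cultures, so SDs and p-values measure only the spread between these samples, which may be technical.

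Each sample held 34573053 to 48933893 reads on genes. Levels are in CPM, TMM-scaled counts relative to library size, and 3 counts corresponded to 0.0598 to 0.0844 CPM. Counts differed beyond sampling noise in the vehicle pair (chi-square over its degrees of freedom, 6.33) and in the Liq pair (11.1), and by 58.4 to 71.4 across groups, so every sample was kept as its own library. Among markers of epithelial and ovarian cells, KRT7 was at 251.8 CPM in vehicle against 357.5 CPM in Liq samples (edgeR adjusted p = 1.08e-05), KRT18 at 197.7 and 167.2 CPM (edgeR adjusted p = 0.0132) and KRT8 at 23.77 and 26.13 CPM, while CDH1 and MSLN had no counts in any sample, EPCAM had at most 3 counts and MUC16 at most 1. Keratins were thus present in the labelled ovarian cancer line, and several defining markers were absent. PAX8 and WT1, which mark many ovarian carcinomas, fell from 1.21 to 0.458 CPM and from 4.46 to 2.77 CPM (edgeR adjusted p = 0.00214 and 0.00285). PAX8 rested on few counts, 49 and 46 in vehicle and 12 and 29 in Liq samples, and its Liq samples lay far apart. The 10 epithelial and ovarian markers summed to 458.7 to 499.2 CPM in vehicle and 531.3 to 576.8 CPM in Liq samples, with KRT7 as the main source of the higher sum, and the 8 leukocyte and endothelial markers to 53.24 to 55.87 and 46.19 to 49.89 CPM. Most of the latter was CDH5, at 51.76 and 46.38 CPM (edgeR adjusted p = 0.167), and KDR fell from 2.39 to 1.38 CPM (edgeR adjusted p = 0.00603). PECAM1 had 10 and 5 counts in vehicle and 2 in each Liq sample, and VWF 7 and 2 against 1 in each. Both were too low to test. Of the defining leukocyte markers, CD3E had no counts and PTPRC had 1 count in a Liq sample, and the part of these markers in the results below was not tested. In bulk RNA, fewer cells of a type and less RNA per cell cannot be told apart.

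ETS factors share a DNA-binding domain that recognises a GGAA core, and they differ in the domains around it. Many are endpoints of the RAS and ERK pathway: ERK phosphorylates ETS1, ETS2, the PEA3 proteins and the ternary complex factors ELK1 and ELK3, which bind DNA together with SRF. In many cell types ERK activity also relieves repression of the PEA3 genes by CIC, and the RNAs of ETV4, ETV5 and PHLDA1 are widely used as readouts of ERK output. ETS factors are known in carcinomas for driving matrix proteases and invasion. PHLDA1 is no ETS factor, but a protein with a pleckstrin homology-like domain that is induced by growth factors.

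The GGAA core is shown in the upstream sequence of the 3 members outside the PEA3 group that differed most between Liq and vehicle and have an entry in the RefSeq table (build GRCh38.p14), to show what such a site looks like in these genes. Each run holds the 250 bases before the most upstream annotated start, 5′ to 3′ on the gene's strand, with GGAA and its reverse complement TTCC in capitals. The ETS2 window lies on the plus strand at chr21:38804933-38805182, the ELF1 window on the minus strand at chr13:41061387-41061636, and the ELK1 window on the minus strand at chrX:47650605-47650854.
ETS2: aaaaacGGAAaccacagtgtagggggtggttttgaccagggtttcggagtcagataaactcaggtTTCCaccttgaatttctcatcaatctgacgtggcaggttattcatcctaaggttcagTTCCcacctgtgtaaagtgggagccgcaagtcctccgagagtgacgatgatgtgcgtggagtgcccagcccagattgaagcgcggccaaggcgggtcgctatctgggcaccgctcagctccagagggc
ELF1: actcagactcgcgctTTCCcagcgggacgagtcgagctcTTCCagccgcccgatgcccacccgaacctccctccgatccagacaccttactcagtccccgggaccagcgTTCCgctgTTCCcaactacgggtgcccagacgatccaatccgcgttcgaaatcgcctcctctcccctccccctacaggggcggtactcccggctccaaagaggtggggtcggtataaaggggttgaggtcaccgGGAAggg
ELK1: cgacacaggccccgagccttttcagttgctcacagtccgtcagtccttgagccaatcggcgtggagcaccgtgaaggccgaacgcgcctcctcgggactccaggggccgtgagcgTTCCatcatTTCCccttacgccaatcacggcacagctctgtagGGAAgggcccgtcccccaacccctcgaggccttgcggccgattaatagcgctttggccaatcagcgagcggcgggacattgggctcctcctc
The windows hold 3, 5 and 3 copies of the core. Of the 10 members, 7 matched the table, with 16 windows and 0 to 6 copies in each, while GGAA on either strand occurred in 92.7% of all 35116 windows of this length, at a median of 3 copies. The longer site CCGGAAG was in 8.52% of all windows and in 0 of the 16, and the CArG box bound by SRF was in 1.16% of all windows and in 0 of the 16. These letters describe the windows only.

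Among the 10 genes, ETV4 was lower with Liq, ETS2 was higher, and the remaining differences were smaller or near 0. By sign, 9 were lower and 1 was higher. ETV4 alone met the call used throughout, a fold change of at least 1.5 with an adjusted p under 0.05 in edgeR's quasi-likelihood test, which is 1 of 10 members. Of all genes tested, 6.45% were called in either direction and 2.16% were called as lower. At any fold, 4 members (ETV4, ELK1, ELK3 and ELF1) were on the lower side and 1 (ETS2) on the higher side of the adjusted p threshold, where 11.3% of all genes were lower and 12.6% were higher. In CPM, both Liq samples lay below both vehicle samples for 8 members and above them for 1 (ETS2), against 30.2% and 31.5% of all genes. Because these genes were chosen by this contrast, nothing is read from those shares. The median log2 fold change was -0.17 over the members and 0.0062 over all genes, and the median size was 0.206 against 0.158.

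**Figure D1:**
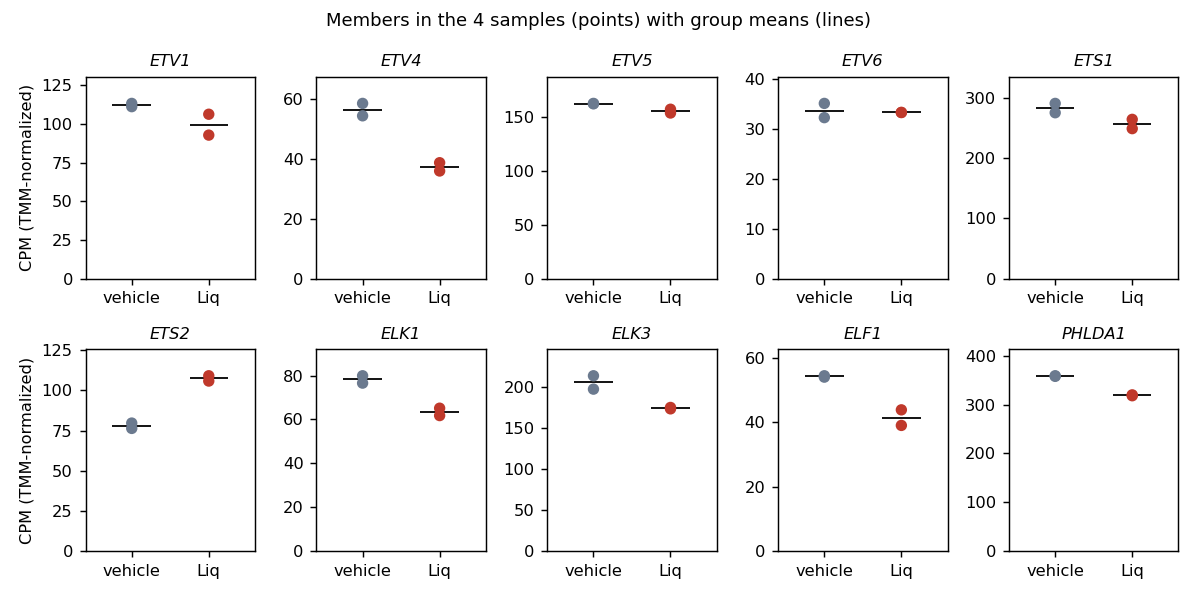
Level of each of the 10 genes in CPM on the vertical axis, a panel per gene, with 1 point per sample and a line at the mean of the 2 samples of each group. The means of ETV4 are 56.35 and 37.26 CPM in vehicle and Liq samples and those of ETS2 are 77.96 and 107.4 CPM, whereas the points of ETV6 overlap.

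Within the PEA3 group the difference was largest for ETV4, smaller for ETV1 and close to 0 for ETV5. ETV4 (PEA3, E1AF), which activates matrix protease genes in invading carcinoma cells, was at 58.42 and 54.28 CPM in the vehicle samples and at 38.64 and 35.88 CPM in the Liq samples. Every Liq value was far below every vehicle value. Its mean went from 56.35 ± 2.93 to 37.26 ± 1.95 CPM (SD over 2 samples). The log2 fold change was -0.60 (SE 0.085), which is 1.51-fold lower RNA and sits just past the 1.5-fold threshold. The next member by size of a lower value, ELF1, was at -0.39 on the log2 scale and did not reach the threshold. ETV4 lost the call under upper-quartile scaling (-0.57), without vehicle replicate 1 (-0.54) and without Liq replicate 2 (-0.55), all with the same direction.

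ETV1, the PEA3 factor fused or overexpressed in prostate cancers, was at 111.1 and 113.2 CPM in vehicle and at 92.71 and 106.2 CPM in Liq samples. The Liq samples were both lower but far apart, so the log2 fold change of -0.17 (SE 0.078) ranged from -0.28 without Liq replicate 2 to -0.079 without Liq replicate 1. ETV5 (ERM), a PEA3 factor needed for spermatogonial stem cells, was the most highly counted of the group, at 162.3 and 161.9 CPM in vehicle and 153.4 and 156.9 CPM in Liq samples. Its log2 fold change of -0.063 (SE 0.070) was smaller than its SE, and loess scaling turned it to 0.0018. The ratio of ETV4 to ETV5 counts within a sample, which needs no scaling between libraries, was 0.360 and 0.335 in vehicle and 0.252 and 0.229 in Liq samples. The ratio of ETV4 to ETV1 counts was 0.526 and 0.479 in vehicle and 0.417 and 0.338 in Liq samples. For both ratios every Liq sample was below every vehicle sample, so ETV4 was lower relative to both of its paralogs.

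ETS1 and ETS2 are close paralogs with a Pointed domain that ERK docks on. ETS2 was at 76.3 and 79.63 CPM in vehicle and at 109.1 and 105.8 CPM in Liq samples, the only member with higher values, and its groups were well separated. Its log2 fold change was 0.46 (SE 0.075), or 1.38-fold, below the fold threshold, and it stayed between 0.43 and 0.51 over 11 alternative settings. ETS1, a factor of lymphoid, endothelial and invasive tumour cells, was at 275.4 and 290.9 CPM in vehicle and 249.0 and 264.4 CPM in Liq samples. The groups of ETS1 were separate but close, with a log2 fold change of -0.14 (SE 0.068) that loess scaling brought to -0.060. The ratio of ETS2 to ETS1 counts was 0.277 and 0.274 in vehicle against 0.438 and 0.400 in Liq samples.

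Of the ternary complex factors, ELK1, an activator of immediate early genes with SRF, was at 79.97 and 76.61 CPM in vehicle and 65.16 and 61.79 CPM in Liq samples. ELK3 (Net), which represses the same promoters until ERK phosphorylates it, was at 213.3 and 197.0 CPM in vehicle and 174.7 and 173.0 CPM in Liq samples. Liq values were lower than vehicle values for both genes, by -0.30 (SE 0.078) for ELK1 and -0.24 (SE 0.071) for ELK3 on the log2 scale.

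ELF1, an ETS factor best known in blood cells, was at 54.09 and 54.52 CPM in vehicle and 39.06 and 43.91 CPM in Liq samples. Its groups did not overlap and its log2 fold change was -0.39 (SE 0.085), between -0.48 without Liq replicate 2 and -0.31 without Liq replicate 1. ETV6 (TEL), a repressor with a Pointed domain that is rearranged in leukaemias, was at 32.32 and 35.18 CPM in vehicle and 33.35 and 33.37 CPM in Liq samples. The Liq values of ETV6 lay between the vehicle values, and the log2 fold change of -0.016 (SE 0.089) changed sign in 2 of the 11 alternatives. PHLDA1 was at 359.4 and 358.2 CPM in vehicle and 320.2 and 318.4 CPM in Liq samples, a narrow spread with a log2 fold change of -0.17 (SE 0.065). Loess scaling brought PHLDA1 to -0.084.

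**Figure D2:**
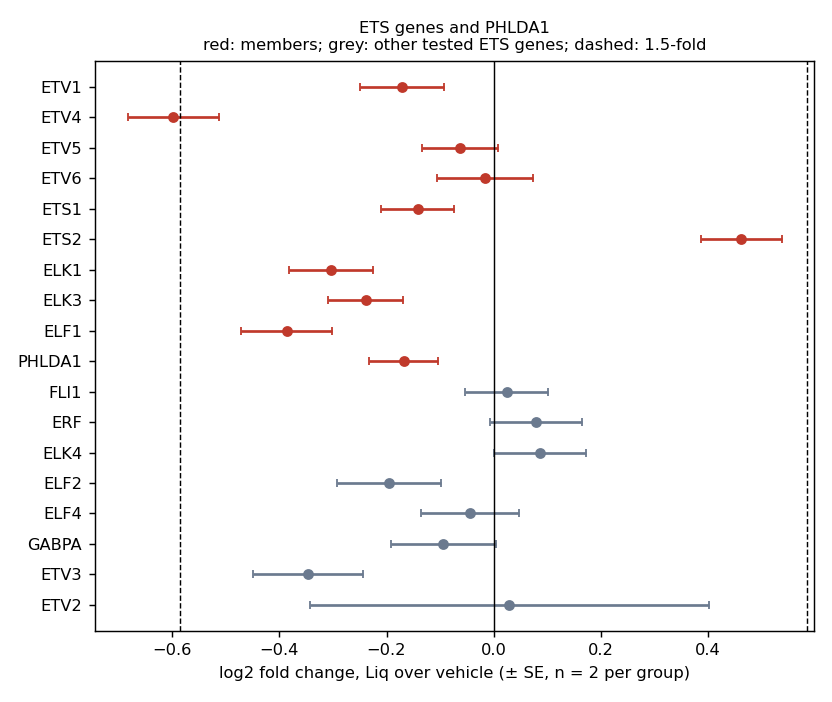
Log2 fold change of Liq over vehicle with its SE from edgeR for the 10 members and the 8 other tested ETS genes (red and grey), with dashed lines at a 1.5-fold change. ETV4 at -0.60 is alone past the threshold, ETS2 at 0.46 is the highest, and ETV3 at -0.35 is the lowest of the other ETS genes.

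**Figure D3:**
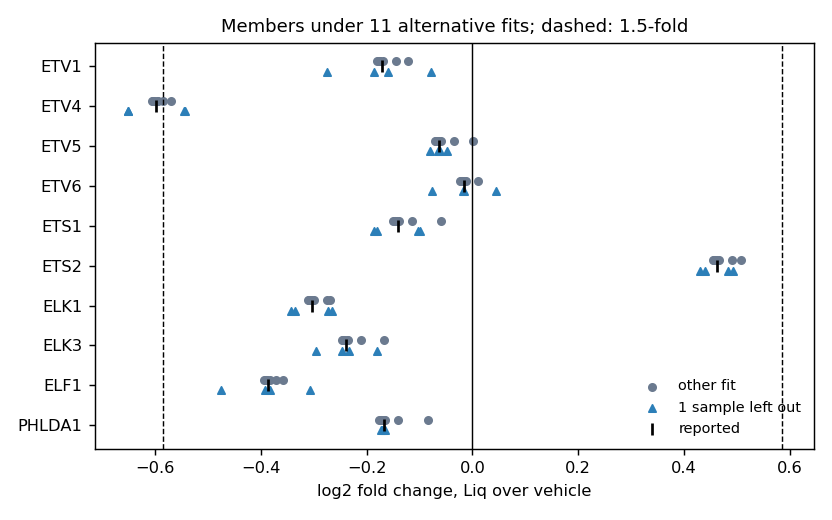
Log2 fold change of the 10 members as reported (black bar), under other fits (circles) and with 1 sample left out (triangles), 11 alternatives in all, with dashed lines at a 1.5-fold change. ETV4 stays between -0.65 and -0.54 and ETS2 between 0.43 and 0.51, while ETV5 and ETV6 have points on both sides of 0.

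The members are spread over the genome (GRCh37, GENCODE annotation) and their counts come from annotated exons. ETV4 lies at chr17:41605212-41656988 on the minus strand inside the span of DHX8, a helicase gene on the opposite strand. DHX8 was at 78.74 ± 2.08 CPM in vehicle against 78.78 ± 3.55 CPM in Liq samples (edgeR log2 fold change -0.00015, adjusted p = 0.999). ETV5 at chr3:185764103-185828107, minus strand, overlaps the end of DGKG, a kinase gene on the same strand at 4.24 ± 0.32 and 4.75 ± 0.40 CPM (edgeR adjusted p = 0.467). Antisense RNAs annotated over ETV5, ETS1, ETS2, ELK3 and PHLDA1 have no row in the tables and the strand setting of the counting is not stated, so reads from either strand cannot be told apart there. ETS2 lies at chr21:40177107-40196879 on the plus strand, ELK1 at chrX:47494920-47510003 on the minus strand and ELF1 at chr13:41506060-41635576 on the minus strand. ETV1 (chr7:13930854-14031050), ETS1 (chr11:128328656-128457453) and PHLDA1 (chr12:76419227-76425556) are on the minus strand, and ETV6 (chr12:11802608-12048311) and ELK3 (chr12:96588153-96663602) on the plus strand.

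Levels between genes were compared per kilobase of annotated exon. On this scale the order in vehicle was PHLDA1 (60.68 ± 0.14 CPM per kb), ELK3 (44.18 ± 2.48), ETS1 (39.61 ± 1.53), ETV5 (28.08 ± 0.040), ELK1 (23.04 ± 0.70), ETV4 (16.03 ± 0.83), ETS2 (15.66 ± 0.47), ELF1 (12.23 ± 0.068), ETV1 (11.69 ± 0.16) and ETV6 (4.67 ± 0.28). ETV4 and ETS2 did not differ beyond their spread there, whereas per kilobase of the canonical transcript ETV4 (24.13 ± 1.26) stood above ETS2 (21.25 ± 0.64). In Liq samples ETS2 stood at 21.58 ± 0.47 CPM per kb, above ELK1 at 18.68 ± 0.70, and ETV4 stood at 10.60 ± 0.55, beside ETV1 at 10.37 ± 0.99 and ELF1 at 9.34 ± 0.77, whose values overlapped in turn. ELK3 and ETS1, at 37.43 ± 0.25 and 35.90 ± 1.53 CPM per kb with Liq, exchange places when the canonical transcript's length is used instead, so their order depends on the length taken.

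Over the 28 ETS genes, including 19 that are not members, levels per kilobase summed to 249.9 and 246.3 in vehicle and 228.7 and 228.7 CPM per kb in Liq samples. The 9 ETS members made up 78.53% and 78.81% of that sum in vehicle and 76.16% and 77.24% in Liq samples. The PEA3 group made up 22.53% and 22.45% in vehicle against 20.65% and 21.19% with Liq. ETS2 took 6.13% and 6.50% of the sum in vehicle and 9.59% and 9.29% with Liq, while ETV4 took 6.65% and 6.27% in vehicle and 4.81% and 4.47% with Liq. With Liq, the share of ETS2 was above that of ETV4 in each sample, while in vehicle it was below in 1 sample and above in the other. Per kilobase of the canonical transcript, ETS2 took 6.33% and 6.69% in vehicle, below ETV4 at 7.62% and 7.17%. The order of their shares in vehicle thus depends on the length taken.

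**Figure D4:**
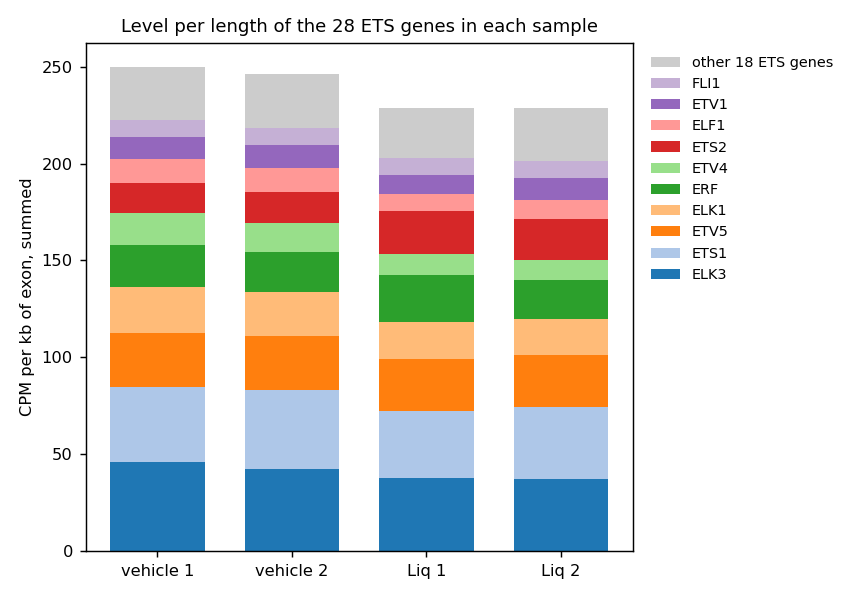
Summed level of the 28 ETS genes in CPM per kb of exon, stacked for each of the 4 samples, with 10 genes in colour and the other 18 together in grey. The stacks stand at 249.9 and 246.3 in vehicle and 228.7 in each Liq sample, with ELK3, ETS1 and ETV5 as the thickest layers and ETS2 widening with Liq.

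The lists that follow were drawn up with earlier results of these data known, so their counts describe them and are not independent evidence of a direction. The 19 other ETS genes gave 8 that could be tested and none was called (0 of 8, by edgeR, with 1 at an adjusted p under 0.05 and 6.45% of all genes called). ETV3, a repressor, was lower with Liq at a fold under the threshold, at 15.76 ± 0.11 CPM in vehicle against 12.41 ± 0.54 CPM in Liq samples (edgeR log2 fold change -0.35, SE 0.10, adjusted p = 0.0152). FLI1, at 69.99 ± 1.83 and 71.21 ± 1.94 CPM, ERF, the ERK-regulated ETS repressor at 69.13 ± 3.47 and 73.12 ± 8.93 CPM, and ELK4, the ternary complex factor SAP1 at 76.06 ± 7.20 and 80.61 ± 8.41 CPM, had overlapping groups. GABPA, which serves respiratory and housekeeping genes, was at 31.57 ± 1.41 and 29.48 ± 4.10 CPM, ELF4 at 32.53 ± 2.94 and 31.60 ± 1.009 CPM, and ELF2 at 21.05 ± 0.50 and 18.37 ± 0.65 CPM. ETV2, a factor of blood vessel development, had 16 to 23 counts. ERG, FEV, ETV3L, ELF3 and SPIC were listed at 0 in all 4 samples, and the epithelial factors EHF and SPDEF had at most 5 counts. The median log2 fold change of the 8 was -0.0098.

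Of 15 genes for partners and regulators of ETS proteins, 0 were called by edgeR, against 6.45% of all genes. At a smaller fold 5 passed the adjusted p, all of them lower, against 11.3% of all genes lower and 12.6% higher. By sign, 9 were lower and 6 higher. Both Liq samples lay below both vehicle samples for 8 and above them for 5, against 30.2% and 31.5% of all genes. CBFB, the partner subunit of RUNX proteins, fell from 111.1 ± 2.55 to 80.13 ± 7.30 CPM (edgeR log2 fold change -0.47, adjusted p = 8.34e-05). RUNX1, which binds DNA with ETS1, fell by 0.24 on the log2 scale (edgeR adjusted p = 0.0235). The coactivator EP300 fell by 0.24 (adjusted p = 0.0222) and the corepressor DAXX by 0.22 (adjusted p = 0.0301), both by edgeR. CIC, the repressor of the PEA3 genes, was at 42.43 ± 2.74 CPM in vehicle against 47.62 ± 4.08 CPM in Liq samples (edgeR adjusted p = 0.182). RFWD2 (COP1), the ubiquitin ligase for PEA3 and ETS proteins, was at 52.57 ± 0.23 and 49.24 ± 2.70 CPM (edgeR adjusted p = 0.442), and SRF at 97.00 ± 6.85 and 84.33 ± 9.196 CPM (edgeR adjusted p = 0.0762). The list's median log2 fold change was -0.093, against 0.0062 over all genes.

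The 16 genes of the ERK cascade were also without a call by edgeR, against 6.45% of all genes. At any fold 1 passed the adjusted p, as lower, against 11.3% of all genes lower and 12.6% higher. MAP2K1 (MEK1) went from 93.06 ± 0.031 to 75.98 ± 5.65 CPM (edgeR log2 fold change -0.29, SE 0.078, adjusted p = 0.00765). The kinase RPS6KA2 was at 277.7 ± 14.3 and 290.0 ± 1.30 CPM and NRAS at 152.7 ± 4.13 and 132.5 ± 17.96 CPM. The median log2 fold change of the cascade was -0.061.

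The ERK output genes, feedback inhibitors and immediate early genes outside the members, gave calls in 1 direction. By edgeR, 5 of 16 fell past the call and 0 rose, against 6.45% of all genes called. At an adjusted p under 0.05 and any fold, 11 of 16 were lower, against 11.3% of all genes. By sign, 14 were lower and 2 higher. Both Liq samples lay below both vehicle samples for 12 and above them for 2, against 30.2% and 31.5% of all genes. The 2 higher genes were CCND1 and MYC, with MYC at 288.3 ± 4.53 CPM in vehicle against 325.6 ± 27.1 CPM in Liq samples (edgeR adjusted p = 0.0683). EGR1, an immediate early zinc finger factor with ternary complex sites in its promoter, fell from 127.1 ± 9.39 to 32.86 ± 2.09 CPM (edgeR log2 fold change -1.95, SE 0.084, adjusted p = 1.83e-15). EPHA4, a receptor tyrosine kinase, fell from 108.6 ± 6.401 to 55.14 ± 2.14 CPM, and the early response gene IER3 from 187.5 ± 4.37 to 99.72 ± 0.71 CPM. The phosphatase of ERK, DUSP6, fell from 397.6 ± 9.32 to 213.7 ± 2.69 CPM, and the Sprouty inhibitor SPRY4 from 152.5 ± 2.79 to 85.39 ± 4.11 CPM. CCND1 was at 1121 ± 0.30 and 1147 ± 14.2 CPM (edgeR adjusted p = 0.726) and FOSL1 at 612.7 ± 19.3 and 564.2 ± 57.3 CPM (edgeR adjusted p = 0.212), so neither passed. EPHA2, at 373.5 ± 13.8 and 321.0 ± 18.8 CPM, was lower at a fold under the threshold (edgeR adjusted p = 0.0189). So were the ERK pathway inhibitors DUSP5, SPRY1, SPRY2, SPRED1 and SPRED2, with log2 fold changes from -0.51 for SPRY1 to -0.37 for DUSP5. The list's median log2 fold change was -0.43.

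Of 20 genes known for ETS sites in their promoters or enhancers, 15 were tested and edgeR called 8, of which 6 fell and 2 rose, where 6.45% of all genes were called and 2.16% were called as lower. MMP1, an interstitial collagenase, fell from 20820 ± 142 to 6041 ± 91.7 CPM (edgeR log2 fold change -1.79, adjusted p = 2.64e-20), and it held most of this list's CPM in vehicle. The stromelysin MMP3 fell from 29.30 ± 1.70 to 12.83 ± 0.31 CPM (adjusted p = 9.88e-10 by edgeR) and the prostaglandin synthase PTGS2 from 16.43 ± 0.67 to 7.69 ± 0.45 CPM (adjusted p = 3.10e-08 by edgeR). The adhesion gene ICAM1 fell from 141.1 ± 3.69 to 80.16 ± 3.44 CPM (edgeR adjusted p = 6.01e-09). The matrix glycoprotein TNC fell from 219.8 ± 10.1 to 144.0 ± 1.24 CPM (edgeR adjusted p = 3.53e-07). TNC was just past the fold threshold and did not reach it without vehicle replicate 1 (-0.56). HMOX1, the haem oxygenase, rose from 9.31 ± 0.39 to 20.01 ± 1.26 CPM (edgeR adjusted p = 1.23e-08). ERBB2 rose from 1.31 ± 0.039 to 3.41 ± 0.26 CPM (edgeR adjusted p = 8.06e-06) and ANGPT2 fell by 0.88 on the log2 scale. VIM, at 7479 ± 178 and 6176 ± 431 CPM (edgeR adjusted p = 3.41e-04), and PLAU, at 766.1 ± 18.4 and 590.7 ± 26.2 CPM (edgeR adjusted p = 6.92e-05), were lower at folds under the threshold. MMP7, MMP9, MMP13, CXCR4 and HGF were too low to test. The list's median log2 fold change was -0.38.

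**Figure D5:**
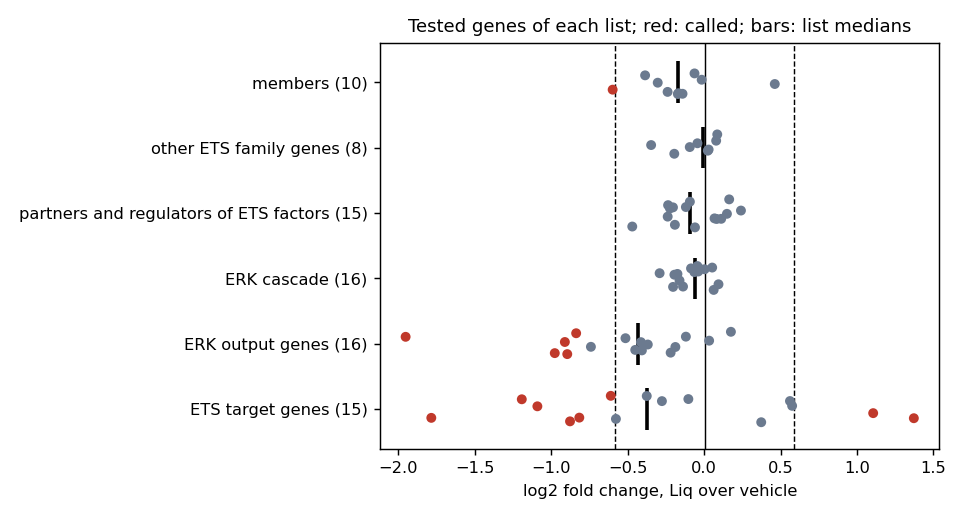
Log2 fold change of Liq over vehicle by edgeR for every tested gene of the members and of 5 gene lists, with 1 point per gene (red where called), a bar at each median and dashed lines at a 1.5-fold change. The medians lie at -0.17 for the members, -0.0098 for the other ETS genes, -0.093 for the partners, -0.061 for the ERK cascade, -0.43 for ERK output and -0.38 for ETS targets, and both last lists spread the widest.

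Of the PHLDA1 paralogs, PHLDA2, an imprinted growth inhibitor, fell from 25.97 ± 3.11 to 16.59 ± 3.46 CPM (edgeR log2 fold change -0.66, adjusted p = 1.64e-04), and PHLDA3 was at 11.27 ± 0.68 and 13.74 ± 2.01 CPM (edgeR adjusted p = 0.0800). Of the estrogen receptors, ESR1 had 17 and 22 counts in vehicle and 19 and 34 with Liq (edgeR adjusted p = 0.554), and ESR2, which codes for ERβ, had 4 and 7 in vehicle and 5 and 14 with Liq, too few to test.

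The genes whose pattern over the 4 samples lay nearest to the mean profile of ETV4 and ETV5 were HOXC4, RAB7A, UQCRFS1, RGS3 and MOCS1, at distances of 0.0042, 0.012, 0.015, 0.021 and 0.022 on the log2 scale, out of 12223 genes with a mean of at least 1 CPM. Their log2 fold changes ranged from -0.34 to -0.32, between ETV4 at -0.60 and ETV5 at -0.063. The mean profile is therefore that of neither gene, and a gene near it is not shown to follow either. Among the members, ELK1 came nearest to this mean, at rank 17 and a distance of 0.039.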

How the data were processed

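The authors prepared TruSeq libraries from total RNA, converted reads with bcl2fastq 2.17.1.14, aligned them to hg19 with TopHat2 2.0.8b and counted reads per gene with HTSeq (per the labels), and deposited raw counts, 1 table per sample. HTSeq leaves out reads with more than 1 place. Their tally was 35.63% to 36.23% of all counts tallied for a sample, and whether it counts reads or alignments is not stated. The 5 tally lines per sample were left out. The HTSeq strand setting is not given in the sources used here.

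The test was run with edgeR 4.0.16 under R 4.3.3: filterByExpr (minimum count 10, total 15), TMM, glmQLFit and glmQLFTest over the 4 samples without a block, Benjamini-Hochberg adjustment over 13546 genes. Gene symbols were placed on GRCh37 with GENCODE. The fits were tested on simulated data whose changes were all well above the 1.5-fold threshold, so calls close to it were not covered. Alternatives, also with DESeq2 1.42.0 and limma 3.58.1 (loess span 0.3), are given at the end. Members and lists were chosen with earlier results of these data known. Named are all members and the other ETS genes. In each list, the called genes (at most 6, by p) and up to 3 uncalled genes of highest CPM are named. Paralogs, overlapping genes and the 5 nearest patterns are named besides. Some other genes with an adjusted p under 0.05, further markers, MYC, CIC, RFWD2 and SRF were added after values were seen. The remaining list genes are given by counts, and a few that the rule names are not reported here. SDs are over the 2 samples of a group, SEs come from the edgeR fit, and the 3-count floor covers counting error only. With 2 samples against 2, no exact permutation p below 0.333 is possible.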

Additional observations from a re-analysis of the deposited data

How the results depend on the processing

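Of 110 alternative values for the members, 96 moved by less than the spread between replicates and 14 by more. No called value reversed, but ETV4 was the only member called. The sign changed in 1 alternative for ETV5 and in 2 for ETV6. Of 770 values for the other named genes, 754 kept their side of the threshold. TNC lost its call in 3 settings, and 13 values of SPRY1, SPRED3, MMP14, SPP1, MET and TERT passed the threshold. All genes called were 874, against 540 by the DESeq2 Wald test, 328 at a fold threshold of 2 and 3245 with no fold threshold, and 659 to 979 with a sample left out. Loess offsets gave 396 lower and 351 higher calls, against 293 and 581. Members called were 1, but 0 under upper-quartile scaling and at a fold of at least 2, 5 with no fold threshold, and 0 to 1 with a sample left out. With no fold threshold the counts were 1 for the other ETS genes, 5 for partners, 1 for the ERK cascade, 11 for ERK output and 13 for ETS targets, and at a fold of at least 2 they were 1 for ERK output and 5 for ETS targets. With the replicate number as a block, 898 genes were called (297 lower, 601 higher), and ETV4 was still the 1 member called. Deviations of same-numbered samples had a correlation of 0.0403, but only 2 pairs exist, so this cannot show whether the numbers pair the samples. The cause of these shifts was not tested. No scaling moved the median of all genes beyond 0.0335 on the log2 scale. Depth limits the ETS genes with few counts and ESR2, for which no difference could be tested.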
